A study of Rattus norvegicus with 4 samples.

Results

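The 3 genes of the Gadd45 family and Cdkn1a, which encodes p21, were examined in a rat hindlimb ischemia model of intermittent claudication, in which too little blood reaches the leg muscle during walking. All probe sets that the platform annotation assigns to Gadd45a, Gadd45b, Gadd45g or Cdkn1a were taken, which gave 5 of 31099 probe sets for 4 of 14218 genes with a symbol. The genes were chosen with values of these arrays known, because Gadd45 genes differed in direction on the electrically stimulated array. Their levels are therefore given as a description, with no test. Skeletal muscle RNA of F344/DuCrlCrlj rats was hybridised to 4 arrays, 1 for each of ischemia with electrical stimulation (ischemia + ES), ischemia with exercise (ischemia + exercise), ischemia alone and sham. The first 3 groups share the ischemia, and stimulation and exercise were each added to it. The muscle taken, the age of the rats, the number of animals behind an array and the timing of the treatments were not stated in the labels. With 1 array per group, array and group cannot be told apart, and no difference below has a replicate check. A signal is a MAS5 intensity on a linear scale. A ratio is called only at 2-fold or more, after signals under 30.1, the median of all values, had been set to that floor.

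GADD45 proteins are small acidic proteins without enzyme activity that bind other proteins. They are induced by growth arrest, DNA damage and other stresses, and act on the kinase MAP3K4 upstream of p38 and JNK, on PCNA, on the mitotic kinase CDK1 and on p21 itself. In mouse muscle, Gadd45a is induced by loss of the nerve supply and takes part in fibre atrophy, while Gadd45b is known as a target of NF-kappaB and TGF-beta and Gadd45g as a cytokine-induced member. p21 inhibits cyclin-dependent kinases and binds PCNA, is a classical target of the tumour suppressor p53, and is induced when myoblasts leave the cell cycle to form fibres.

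The windows around the annotated gene starts are shown for the 3 genes with the widest ranges over the arrays, so that the gene with the low signals can be set beside those with high ones. They run from 250 bases before to 50 bases after the start and come from RefSeq on build GRCr8, in which all 4 genes matched by gene identifier. Gadd45a lies at chr4:97486750-97487049 on the minus strand, Cdkn1a at chr20:7150682-7150981 on the plus strand and Gadd45g at chr17:13530302-13530601 on the minus strand. Capitals mark matches, on either strand, to the octamer core (TTTGCAT), the CCAAT box (CCAAT), the TATA core (TATAA), the palindromic E-box (CACGTG), the CRE half-site (TGACG), the GC box (GGGCGG) and the p53 half-site consensus. No matches overlap each other in these windows.
Gadd45a: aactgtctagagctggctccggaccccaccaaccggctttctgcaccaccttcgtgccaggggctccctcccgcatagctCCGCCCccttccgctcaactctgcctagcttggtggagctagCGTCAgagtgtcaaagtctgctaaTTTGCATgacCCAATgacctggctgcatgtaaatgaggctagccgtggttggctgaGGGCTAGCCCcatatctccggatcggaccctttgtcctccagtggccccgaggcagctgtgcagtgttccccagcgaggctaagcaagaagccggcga
Cdkn1a: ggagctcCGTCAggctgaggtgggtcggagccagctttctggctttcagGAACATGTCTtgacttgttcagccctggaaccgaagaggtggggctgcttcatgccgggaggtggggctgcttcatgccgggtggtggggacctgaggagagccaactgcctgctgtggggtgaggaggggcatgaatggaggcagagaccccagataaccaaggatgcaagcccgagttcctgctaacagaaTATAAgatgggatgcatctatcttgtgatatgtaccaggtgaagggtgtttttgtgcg
Gadd45g: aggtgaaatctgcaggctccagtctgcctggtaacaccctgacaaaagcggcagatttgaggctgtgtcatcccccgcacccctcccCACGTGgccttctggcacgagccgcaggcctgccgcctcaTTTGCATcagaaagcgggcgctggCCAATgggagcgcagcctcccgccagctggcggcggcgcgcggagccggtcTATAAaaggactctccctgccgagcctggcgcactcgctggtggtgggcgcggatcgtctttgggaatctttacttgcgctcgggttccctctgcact

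The windows of Gadd45a and Gadd45g each held an octamer core, 104 and 123 bases before the start, which 4.68% of the 33469 promoter windows of the same length hold. Each was followed by a CCAAT box, 94 and 99 bases before the start, a motif found in 37.5% of all windows. The Gadd45g window also held a palindromic E-box (6.42% of windows) and a TATA core (26.2%), and the Gadd45a window a CRE half-site (21.2%) and a GC box (33.1%). A p53 half-site lay 201 bases before the Cdkn1a start and 48 bases before the Gadd45a start, against 7.98% of all windows. The 10 bases directly after the Cdkn1a half-site matched the same consensus at 9 positions, and those after the Gadd45a half-site at 4. Cdkn1a further held a CRE half-site and a TATA core. The Gadd45b window, at chr7:9430669-9430968 on the minus strand, held the palindromic E-box, CCAAT box, TATA core, CRE half-site and GC box, with no match to the octamer core or the p53 half-site. These matches describe letters in a single window per gene, and other starts of the genes were not used here.

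Median signals of the 4 arrays lay between 29.0 and 31.8. All 8 markers of muscle fibres lay above the floor on every array, with summed signals between 80087 and 88517. The 3′ to 5′ ratio of the actin control probe sets, a measure of RNA degradation, was 5.94 on the ischemia + ES array, 4.34 on the ischemia + exercise array, 3.81 on the ischemia array and 4.38 on the sham array. That of the GAPDH control probe sets was 1.26, 1.16, 1.04 and 1.16 in the same order. Both ratios were thus highest on the array on which Gadd45a and Cdkn1a were highest, and their part in the results was not tested.

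Cdkn1a differed most of the 4 genes. Its brighter probe set had a signal of 694 on the ischemia + ES array, 180.5 on the ischemia + exercise array, 207 on the ischemia array and 182 on the sham array. The ischemia + ES array was alone in being high, and the other 3 lay within 1.15-fold of each other. The ratio of ischemia + ES over ischemia was 3.35-fold (log2 1.74), the 15th highest of 10092 genes compared. Against the ischemia + exercise array, ischemia + ES was 3.85-fold higher, and against sham 3.81-fold higher. The second Cdkn1a probe set was dimmer, at 65.3 on the ischemia + ES array, 10.7 on the ischemia + exercise array, 16.7 on the ischemia array and 17.1 on the sham array. It passed the floor on the ischemia + ES array alone, so its ratio over ischemia is a bound of at least 2.17-fold, with the same direction as the brighter probe set. In a whole muscle sample, a higher signal per cell and more cells that express the gene cannot be told apart.

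Gadd45a, the member tied to denervated muscle, had its highest signal on the same array by a smaller margin. Its signal was 433 on the ischemia + ES array, 173 on the ischemia + exercise array, 242 on the ischemia array and 178 on the sham array. The order was therefore ischemia + ES, ischemia, sham and ischemia + exercise, and the last pair differed by 1.03-fold. Ischemia + ES was 1.78-fold higher than ischemia (log2 0.84), short of 2-fold, while it was 2.50-fold higher than ischemia + exercise and 2.43-fold higher than sham. Ischemia was 1.36-fold higher than sham, and ischemia + exercise was 1.4-fold lower than ischemia. Gadd45a thus differed from Cdkn1a on the ischemia array, where Gadd45a stood above sham by a log2 ratio of 0.45 and Cdkn1a by 0.19. For scale, 5% of all genes had ratios of ischemia over sham above 0.58.

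Gadd45g, the cytokine-induced member, went the other way on the ischemia + ES array and also differed on the ischemia + exercise array. Its signal was 137 on the ischemia + ES array, 134 on the ischemia + exercise array, 371 on the ischemia array and 395 on the sham array. Both arrays of treated rats were low, both arrays of untreated rats were high, and within each of these pairs the signals differed by no more than 1.06-fold. Ischemia + ES was 2.71-fold lower than ischemia (log2 -1.44), the 14th lowest of all genes compared. Ischemia + exercise was 2.76-fold lower than ischemia, the 15th lowest. These comparisons share the ischemia array. Against sham, ischemia + ES was 2.88-fold lower and ischemia + exercise 2.94-fold lower, and the ratio of ischemia + exercise was the 4th lowest in its comparison.

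Gadd45b, the NF-kappaB target, varied least. Its signal was 117 on the ischemia + ES array, 163 on the ischemia + exercise array, 123 on the ischemia array and 121 on the sham array. The ischemia + exercise array was the highest, at 1.32-fold over ischemia (log2 0.41) and 1.35-fold over sham, and 5% of all genes had ratios of ischemia + exercise over ischemia above 0.53. The ratio of ischemia + ES over ischemia was -0.08 on the log2 scale, and that of ischemia over sham was 0.03, with a sign that turned under quantile and loess normalization. Over the 4 arrays Gadd45b spanned 0.49 on the log2 scale, a range that 39.8% of the genes compared reached, against 3.01% for that of Gadd45a, 1.61% for that of Gadd45g and 0.704% for that of Cdkn1a.

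**Figure D1:**
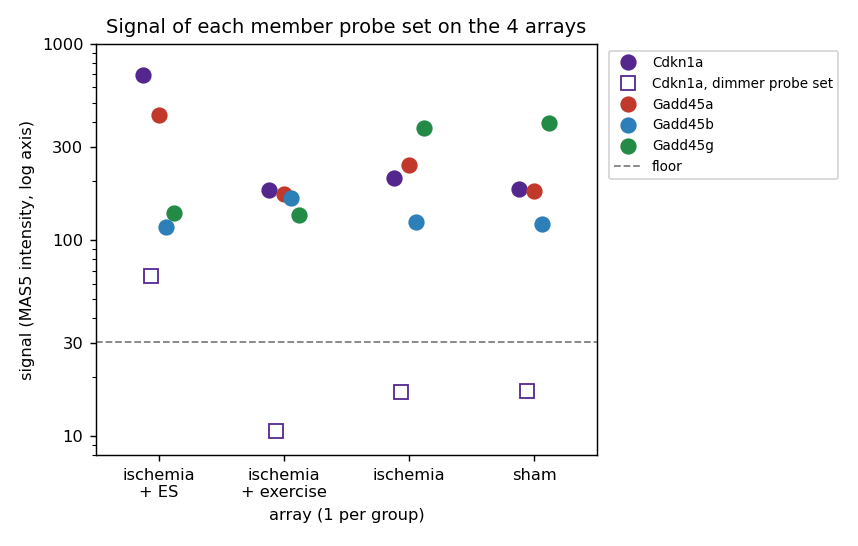
Signal of the 5 probe sets (MAS5 intensity, log axis) on each of the 4 arrays. Filled points are the brightest probe set of each gene, open squares the dimmer Cdkn1a probe set, and the dashed line is the floor of 30.1. Cdkn1a stands at 694 on the ischemia + ES array, against 180.5, 207 and 182 on the ischemia + exercise, ischemia and sham arrays, and Gadd45g at 137 and 134 on the ischemia + ES and ischemia + exercise arrays, against 371 and 395 on the ischemia and sham arrays.

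Counted by comparison, 2 of the 4 genes passed 2-fold for ischemia + ES over ischemia, Cdkn1a higher and Gadd45g lower, where 3.07% of all 10092 genes did (2.28% higher and 0.793% lower). The genes were chosen on this comparison, so nothing is read from that count. For ischemia + exercise over ischemia, Gadd45g alone passed, on the lower side, with 2.01% of all genes past 2-fold and 0.872% lower. None of the 4 passed for ischemia over sham, where 1.64% of all genes did. For ischemia + ES over ischemia + exercise, Gadd45a and Cdkn1a passed on the higher side, where 4.05% of all genes passed and 2.95% were higher. Gadd45g, by contrast, differed by 1.02-fold between the arrays of treated rats. Set against sham, 3 of the 4 genes passed for ischemia + ES (4.84% of all genes) and Gadd45g alone for ischemia + exercise (0.446%). The ischemia + ES and ischemia arrays, on which the genes were chosen, enter other comparisons above. Nothing is read from those counts either.

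**Figure D2:**
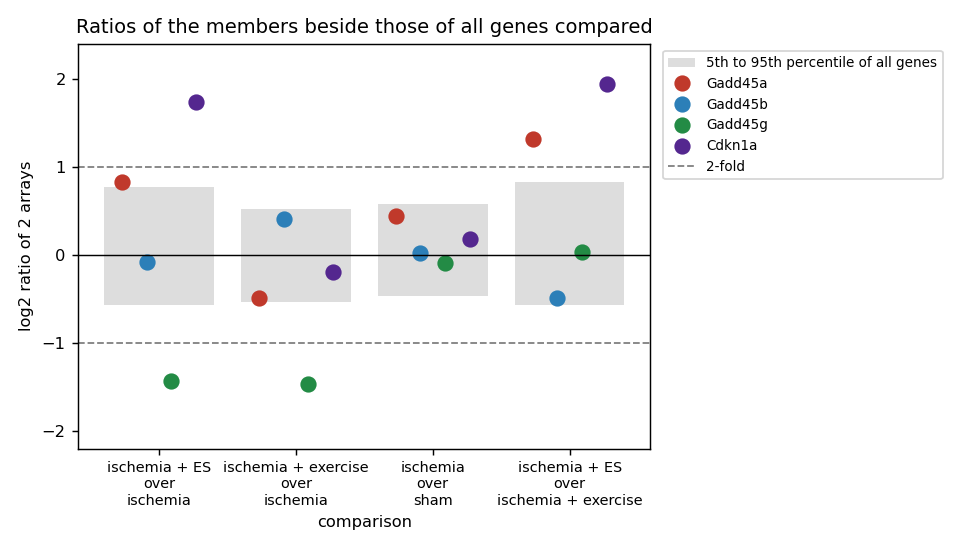
Log2 ratio of 2 arrays for each of the 4 genes in 4 comparisons. Points are the brightest probe set of a gene, grey blocks span the 5th to the 95th percentile of all 10092 genes, and dashed lines mark 2-fold. Cdkn1a at 1.74 and Gadd45g at -1.44 lie on opposite sides for ischemia + ES over ischemia, and all 4 genes lie inside the block for ischemia over sham.

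Genes that share p21's regulator were compared next. Of 28 listed p53 target genes, counting the p53 gene itself and leaving out Cdkn1a, 17 were measured, that is, above the floor on 1 array or more. None passed 2-fold for ischemia + ES over ischemia, with log2 ratios between -0.63 and 0.82. Their median was 0.19, beside 0.05 for all genes, and 14 lay above 0. For ischemia + exercise over ischemia none passed either, and the median was -0.02 beside 0.00 for all genes. The ratio of Cdkn1a for ischemia + ES over ischemia, 1.74, lay above that of every measured gene of this list. It was the 15th highest of 10092 genes in the comparison on which the genes were chosen, so nothing is read from this. Over all genes 3.07% and 2.01% passed 2-fold in these comparisons. A count of 0 therefore says nothing particular about this list, or about the other short lists below.

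Among the other cyclin-dependent kinase inhibitors, 5 of 7 were measured. Cdkn1c, which encodes p57 of the same family as p21, had a signal of 834 on the ischemia + ES array, 172 on the ischemia + exercise array, 447 on the ischemia array and 224 on the sham array. Like Gadd45a, it was highest on the ischemia + ES array and next highest on the ischemia array. Its ratio was 1.86-fold higher for ischemia + ES over ischemia, 2.60-fold lower for ischemia + exercise over ischemia and 4.85-fold higher for ischemia + ES over ischemia + exercise. Cdkn3, a phosphatase that acts on CDKs, was at least 2.01-fold higher for ischemia + ES over ischemia, with log2 ratios of 0.93 under quantile and 0.90 under loess normalization, short of 2-fold. Of 13 measured cyclins, CDKs and partners including Pcna, none passed 2-fold for ischemia + ES over ischemia (median 0.25 beside 0.05). For the mitotic genes Ccna2, Ccnb1, Ccnb2 and Cdk1 these ratios are lower bounds (at least 1.32-fold, 1.54-fold, 1.84-fold and 1.88-fold higher). Like Cdkn3, they passed the floor on the ischemia + ES array alone. Their ratios could therefore only lie above 0, and nothing is read from that direction. The signal of Ccnb2, for instance, was 55.3 on the ischemia + ES array, 18.3 on the ischemia + exercise array, 23.3 on the ischemia array and 18.9 on the sham array. Ccne2 and E2f1 passed the floor on the ischemia array alone, so their log2 ratios (-0.05 and -0.08) could only lie below 0. Genes of both kinds enter the list median. The cyclin D1 gene Ccnd1 was 2.01-fold lower for ischemia + exercise over ischemia, while its other probe sets had log2 ratios of -0.69 and -0.38. Under quantile normalization the ratio of Ccnd1 was -0.992 on the log2 scale and under loess -0.985, short of 2-fold.

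The partners through which GADD45 proteins act were compared in the same way. Of 10 measured genes of the p38 and JNK cascade, among 16 listed, none passed 2-fold for ischemia + ES or ischemia + exercise over ischemia, and the medians were -0.18 and -0.03. At shares of 3.07% and 2.01% over all genes, a count of 0 says nothing particular about so short a list. The ratios furthest from 0 for ischemia + ES over ischemia were those of Dusp10, a phosphatase of p38 and JNK, at least 1.89-fold lower, and of Mapk9, which encodes a JNK kinase, 1.84-fold lower. Dusp1, a phosphatase that switches these kinases off, was 2.0-fold lower for ischemia over sham, with its other probe set at -0.51, and its log2 ratio was -0.988 under quantile and -0.991 under loess normalization, short of 2-fold. In the 4 comparisons, where 1.64% to 4.05% of all genes passed 2-fold, none of 8 measured genes of DNA demethylation and excision repair did. Their medians were -0.19 for ischemia + ES over ischemia and -0.16 for ischemia + exercise over ischemia.

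Lists for known inducers of the members gave mixed counts. The denervation response list, in which Gadd45a itself was not counted, had 5 of 12 measured genes past 2-fold for ischemia + ES over ischemia, all higher, with a median of 0.77 beside 0.05. They were the perinatal and embryonic myosin genes Myh8 (27.7-fold) and Myh3 (3.43-fold), the receptor subunit genes Chrnd (4.76-fold) and Chrna1 (2.33-fold), and the myogenic factor gene Myog (3.23-fold). These genes also serve regenerating fibres. Over all genes 3.07% passed 2-fold for ischemia + ES over ischemia (2.28% higher) and 2.01% for ischemia + exercise over ischemia. For ischemia + exercise over ischemia, the median of that list was -0.16 and Ankrd1, a muscle stress gene, alone passed, at 10.9-fold lower. For ischemia over sham its median was 0.04, with 6 genes above 0 and 5 below. Ankrd1 (10.6-fold) and Myh8 (2.34-fold) were higher there and Chrnd 2.36-fold lower, where 1.64% of all genes passed. Against sham, Chrnd was 2.01-fold higher on the ischemia + ES array.

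Of 12 measured genes of ATF4 and the integrated stress response, none passed 2-fold for ischemia + ES over ischemia (median 0.15). Over all genes 3.07% did. For ischemia + exercise over ischemia, where 2.01% of all genes passed, Atf3 (4.22-fold) and Ddit3 (2.41-fold), both stress-induced transcription factor genes, were higher. Both were low on the ischemia array, as Atf3 had signals of 102, 283, 67.0 and 259 and Ddit3 of 304, 455, 189 and 328 on the ischemia + ES, ischemia + exercise, ischemia and sham arrays. Gadd45a had a higher signal on the ischemia array than on sham, unlike both. Of the 12 genes, 6 lay above 0 and 5 below for ischemia over sham. Ddit4, at 436, 198, 377 and 325 in the same order, ranked the arrays as Gadd45a did. Asns, at 82.5, 25.1, 45.8 and 28.9, was also highest on the ischemia + ES array and next highest on the ischemia array. It lay under the floor on the ischemia + exercise and sham arrays.

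Of 13 measured genes of NF-kappaB and TGF-beta signalling, Nfkb2, which encodes the p100 subunit, alone passed for ischemia + ES over ischemia, at 2.07-fold higher, with log2 ratios of 0.995 under quantile and 0.987 under loess normalization, just short of 2-fold. The list median was -0.01 there and 0.05 for ischemia + exercise over ischemia, where no gene passed. FoxO factors and targets, a list that holds the atrophy ligase genes, had none of 13 past 2-fold in any of the 4 comparisons. Over all genes 1.64% to 4.05% passed. The medians of the FoxO list were 0.10 for ischemia + ES over ischemia and 0.12 for ischemia + exercise over ischemia.

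The lists of cytokine feedback and of the glucocorticoid response were examined last. Of 6 measured STAT and SOCS genes, Cish, a cytokine-induced inhibitor of STAT signalling, alone passed 2-fold. Its signal was 60.5 on the ischemia + ES array, 99.2 on the ischemia + exercise array, 355 on the ischemia array and 292 on the sham array, so that it was low on both arrays of treated rats, as Gadd45g was. Over all genes 1.64% to 4.05% passed 2-fold in the 4 comparisons, and none of 9 measured glucocorticoid response genes did. Their median log2 ratio was -0.62 for ischemia + ES over ischemia and -0.29 for ischemia + exercise over ischemia, with 7 of 9 below 0 in each. For ischemia over sham it was 0.31 with 9 of 9 above 0, beside 0.00 for all genes. All of these medians rest on the same ischemia array, so they are not independent.

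**Figure D3:**
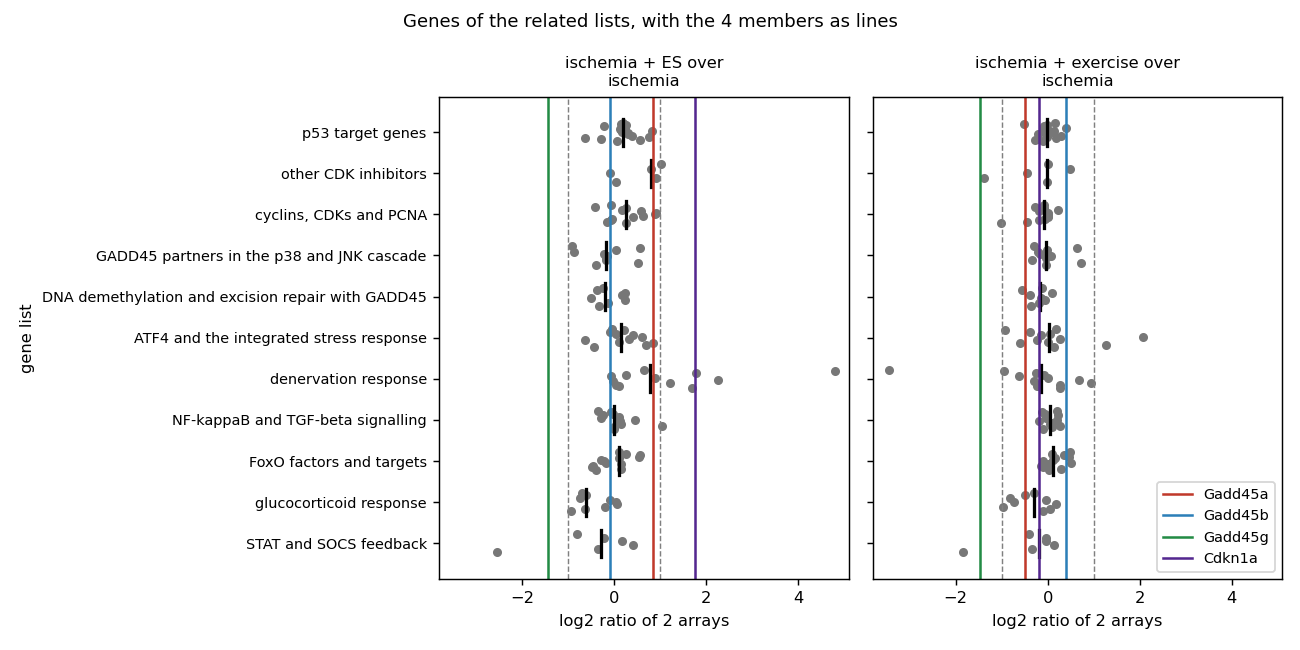
Log2 ratios of the measured genes of 11 lists (grey points, 1 per gene) for ischemia + ES over ischemia on the left and ischemia + exercise over ischemia on the right. Black bars are list medians, dashed lines mark 2-fold, and coloured lines are the ratios of the 4 genes. On the left the denervation response list reaches furthest to the higher side (Myh8, 27.7-fold), and the Gadd45g line lies at -1.44 on the left and -1.47 on the right.

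Markers of other cell types moved with some of the patterns. The 8 measured of 9 endothelial markers, all above the floor on every array, summed to 4359 on the ischemia + ES array, 2360.2 on the ischemia + exercise array, 2133 on the ischemia array and 2244 on the sham array. Like Cdkn1a, this sum was high on the ischemia + ES array alone, by a smaller factor. Of the 8 markers, 7 were higher on that array than on the ischemia + exercise array. Vwf was not, with signals of 189, 218, 128 and 200 on the ischemia + ES, ischemia + exercise, ischemia and sham arrays. The 14 macrophage markers summed to 5484, 2023, 4524 and 1984 on the ischemia + ES, ischemia + exercise, ischemia and sham arrays. The sum was highest on the ischemia + ES array, as was Gadd45a, but 7 of the 13 measured markers were lower on that array than on the ischemia array, and the median log2 ratio was -0.05. Lyz2 (2553 against 2073) and Gpnmb (1158 against 787) carried the higher sum. Itgam was the marker under the floor on all 4 arrays. The 6 measured of 8 satellite cell and myoblast markers summed to between 3826 and 4092, with Myog alone past 2-fold for ischemia + ES over ischemia. The largest part of each sum came from Myf6, at 2299, 2531, 2285 and 2105 in the same order of arrays. Pax7 and Myf5 of this list had no probe set that could be used. Slow fibre markers summed to 23214, 76603, 11603 and 66333 in the same order of arrays, a pattern that none of the 4 genes had. The adipocyte sum was also highest on the ischemia + ES array, at 4512, 2809, 2525 and 2253 in that order. Of its 5 measured markers, 1 was higher on that array than on the ischemia array and 2 were lower. Fibroblast markers summed to 17966, 12097, 19345 and 11887, and tendon markers to 1215, 2134, 2273 and 1410. Schwann cell markers summed to 1336, 1157, 979 and 1275, and neutrophil and lymphocyte markers to 231, 137, 158 and 192. The part of these cell types in the levels of Gadd45a, Gadd45g and Cdkn1a was not tested.

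The genes nearest to each of the 4 were found by the distance between log2 profiles over the 4 arrays, each centred on its own mean, among 648 genes that lay above the floor on all arrays and spanned at least 1 on the log2 scale. Only 4 arrays enter each distance. Gadd45a had Tril, Mamstr, Armcx4, Stab1 and Ehd2 nearest, at distances of 0.08 to 0.17. Tril encodes a partner of a Toll-like receptor, Mamstr a coactivator of MEF2 factors, Stab1 a scavenger receptor and Ehd2 a protein of caveolae. Tril, the nearest, had signals of 379, 159, 214 and 152 on the ischemia + ES, ischemia + exercise, ischemia and sham arrays.

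Cdkn1a had the embryonic myosin gene Myh3 nearest, at 0.12, with signals of 617, 149.6, 179.8 and 169.8 in that order of arrays. It was followed by the basement membrane collagen gene Col4a2, Tp53i11, named as a p53-induced gene, Akr1c14, and the apelin receptor gene Aplnr, at distances up to 0.32. Gadd45g had no gene as near. Its 5 nearest lay at distances of 0.50 to 0.81 and were Tubb1, a tubulin gene of platelets, Slc25a25, a calcium-regulated mitochondrial carrier gene, Klhl20, the proton-activated chloride channel gene Pacc1, and Cish. The 5 nearest to Gadd45b (Pin4, Lin52, Cfd, Inhba and Neurl2) lay at 0.42 to 0.51, and since each spanned at least 1 on the log2 scale while Gadd45b spanned 0.49, none could be close. Among the 4 genes themselves, Gadd45a and Cdkn1a were the nearest pair at 0.67, and Gadd45g and Cdkn1a the most distant at 2.73.

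**Figure D4:**
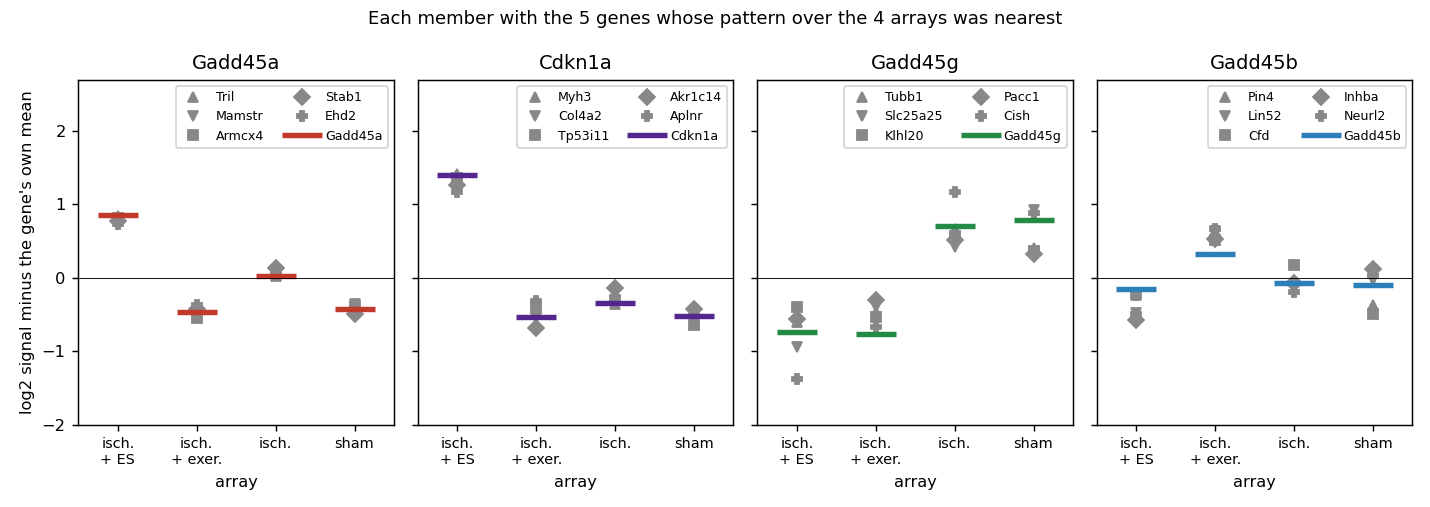
Log2 signal minus the gene's own mean on the 4 arrays, for each of the 4 genes (coloured bar) and its 5 nearest genes (grey symbols). The nearest genes overlie Gadd45a and Cdkn1a (distances from 0.08 and 0.12), and lie further from Gadd45g (from 0.50).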

How the data were processed

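The values are probe set intensities that the authors deposited without log transformation, made with MAS5 per the submitters' processing notes. The 2% trimmed mean was 150.1 on each array, so the arrays had been scaled to a common mean before deposit, which hides differences in total mRNA. Scanner files and detection calls were not analysed here.

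Gene symbols came from the platform annotation of 2016. Of 31099 probe sets, 20832 had 1 symbol, 436 several and 9831 none, and only those with 1 were named. Signals were brought to a common trimmed mean, set to a floor at the 50th percentile and log2-transformed. A gene was represented by its brightest probe set, and genes that passed the floor on 1 array or more were compared, 10092 in all (Python 3.11.15, pandas 2.3.3; limma 3.58.1 for loess). The calculation was tested on simulated arrays. There were no replicates, so no p-value was computed, and precision is limited by having 4 arrays. The 4 genes, the gene lists and the settings were chosen with earlier results of these data known, and the motifs after the promoter windows had been seen. Named genes are the 4, list genes past 2-fold in a comparison, and the 5 nearest to each of the 4, without symbols that start with LOC or RGD. Itgam, Ccna2, Ccnb1, Ccnb2, Cdk1, Ccne2, E2f1, Dusp10, Mapk9, Vwf and Myf6 were named outside this rule, after their values were seen. Pax7 and Myf5 were named because they were not measured.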

Additional observations from a re-analysis of the deposited data

How the results depend on the processing

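The direction of Cdkn1a, Gadd45a and Gadd45g for ischemia + ES and ischemia + exercise over ischemia held under quantile and loess normalization, floors at the 30th and 70th percentile, the mean of all probe sets, and without probe sets open to cross-hybridization. For ischemia + ES over ischemia the log2 ratio ran from 1.74 to 1.86 for Cdkn1a, from 0.84 to 0.85 for Gadd45a and from -1.48 to -1.43 for Gadd45g. For Gadd45a and Gadd45g only quantile and loess normalization could move these ratios. Each has 1 probe set, not among those removed, with signals above the highest floor used (101.7). For Cdkn1a the mean of all probe sets could move the ratio as well. Some small ratios changed sign: Gadd45b for ischemia over sham was -0.005 under quantile and -0.0105 under loess normalization, and Gadd45g for ischemia + ES over ischemia + exercise was -0.0265 under quantile normalization, the cause of which was not tested. At 1.5-fold, Gadd45a (0.84) passed for ischemia + ES over ischemia. At 3-fold, Gadd45g (-1.44 and -1.47 for ischemia + ES and ischemia + exercise over ischemia) and Gadd45a (1.32 for ischemia + ES over ischemia + exercise) did not, which follows from the threshold.

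The number of all genes past the threshold follows the floor and the threshold. For ischemia + ES over ischemia, ischemia + exercise over ischemia, ischemia over sham and ischemia + ES over ischemia + exercise, in that order, it was 310, 203, 166 and 409 as reported, 635, 574, 460 and 800 with the floor at the 30th percentile, and 155, 97, 80 and 197 at the 70th. It was 1465, 834, 821 and 1521 at 1.5-fold and 34, 54, 43 and 67 at 3-fold. The nearest gene remained Tril for Gadd45a and Myh3 for Cdkn1a under every setting tried, but with the floor at the 70th percentile 3 of the 5 nearest genes were kept for Gadd45a, 2 for Cdkn1a and 1 for Gadd45g, and for Gadd45b 2 of 5 with the floor at the 30th percentile or quantile normalization.

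No paired analysis was possible because each group has 1 array. Leaving out a replicate does not apply for the same reason. Dim probe sets are the least precise, among them the second Cdkn1a probe set, which lay under the floor on 3 of 4 arrays.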
